A study of Mus musculus with 4 samples.

Results

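Fga, Fgb and Fgg encode the Aα, Bβ and γ chains of fibrinogen, and they were placed by the start of each gene into the topologically associating domains (TADs) of mouse hepatocytes grown in 2D and in 3D. They are 3 of the 21755 protein-coding genes of chromosomes 1 to 19 and X in the GENCODE annotation (release M21), and they were taken by name, with earlier results of these data known. TADs are stretches of a chromosome that contact themselves more often than their surroundings, and their ends are called borders. The cells were AML12, a mouse hepatocyte line that was immortalised and carries a transgene for human TGF-α, so it is a culture model of a single cell type and not liver. In 2D the cells were replated in dishes, and in 3D they were embedded in Matrigel, an extracellular matrix gel. All cells grew in medium with serum, insulin, transferrin, selenium and the glucocorticoid dexamethasone. All were held at the G1/S boundary by 1 mM hydroxyurea, which was left on 2D cultures for 24 h and on 3D cultures for 36 h, so the culture and the length of the arrest cannot be told apart. In situ Hi-C was performed on 2 biological replicates per culture, 4 samples in all. There is 1 TAD list per culture over both replicates, with positions in base pairs of mm10 and no contact counts, so no spread between replicates and no p-value can be given.

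Fibrinogen is made by hepatocytes as a symmetric dimer in which each side holds an Aα, a Bβ and a γ chain, and all of these chains are needed for assembly and secretion. Thrombin removes short peptides from the Aα and Bβ chains, after which the molecules polymerise into the fibrin of a clot. The γ chain carries sites that platelets and leukocytes bind through integrins. The genes lie side by side in mammals, they are transcribed together in the liver, and they are induced in the acute phase response by interleukin 6 and glucocorticoids.

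The promoters are shown because the 3 genes share a TAD and are known for liver-specific induction together. The table of promoters from RefSeq (GRCm38.p6, the build that mm10 names) held 3 of 3 members, each with 250 bases before and 50 bases from the gene start onwards. They are written 5′ to 3′ on the strand of the gene, for Fgg at chr3:83007474-83007773 (plus strand), for Fga at chr3:83025903-83026202 (plus strand) and for Fgb at chr3:83049814-83050113 (minus strand). Capitals mark matches to the motifs described next.
Fgg: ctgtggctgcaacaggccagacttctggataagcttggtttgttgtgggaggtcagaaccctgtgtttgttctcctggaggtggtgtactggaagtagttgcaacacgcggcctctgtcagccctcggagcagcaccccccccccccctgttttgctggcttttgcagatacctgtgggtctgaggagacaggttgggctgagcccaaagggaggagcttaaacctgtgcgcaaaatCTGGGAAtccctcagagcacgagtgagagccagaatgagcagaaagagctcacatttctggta
Fga: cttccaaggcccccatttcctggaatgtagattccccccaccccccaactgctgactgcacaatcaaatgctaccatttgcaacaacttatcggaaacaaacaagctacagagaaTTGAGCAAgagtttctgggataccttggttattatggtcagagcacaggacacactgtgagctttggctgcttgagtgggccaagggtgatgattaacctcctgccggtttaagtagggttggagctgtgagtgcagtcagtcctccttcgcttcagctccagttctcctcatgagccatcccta
Fgb: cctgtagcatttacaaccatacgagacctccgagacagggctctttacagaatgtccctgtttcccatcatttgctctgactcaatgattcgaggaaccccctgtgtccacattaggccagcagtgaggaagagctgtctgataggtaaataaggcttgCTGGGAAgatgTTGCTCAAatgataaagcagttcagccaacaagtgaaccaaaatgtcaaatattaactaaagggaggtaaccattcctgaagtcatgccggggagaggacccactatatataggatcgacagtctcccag

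The letters described here, searched on both strands, were TATAAA for a TATA box, TTGCNNAA for C/EBP and CTGGGAA for the interleukin 6 response. No match overlapped another. Fgb held the interleukin 6 letters 91 bases before the RefSeq start and the C/EBP letters 80 bases before it. Fga held the C/EBP letters 135 bases before its start, on the other strand. Fgg held the interleukin 6 letters 13 bases before its start. None of the 3 promoters held the TATA letters. Of these letters, Fga and Fgb thus shared those of C/EBP, and Fgb and Fgg those of interleukin 6. Other motifs are not reported here. Of all 32619 promoters in the table, 10.9% held the C/EBP letters, 10.9% the interleukin 6 letters and 13.7% the TATA letters. A match is a description of the letters and not a site of binding. The RefSeq and GENCODE starts were equal for Fgg and Fgb and were 77 bases apart for Fga. GC content was 55.3% in the Fgg promoter, 50% in that of Fga and 46.3% in that of Fgb.

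All 3 fibrinogen genes lay in the same TAD in 2D, and in 3D this TAD had the same start and the same end. It covered chr3:81920001-83800000 in both lists, 1880 kb or 47 bins of 40 kb. TADs were set side by side with the 40 kb bin as the unit, and a TAD was counted as having a counterpart when both of its ends lay within 40 kb of those of 1 TAD of the other list. By that rule 3 of 3 fibrinogen genes lay in a TAD with a counterpart, where 49.7% of all protein-coding genes did so (10807 of 21755). With the same start and end required, the count was again 3 of 3, where the share over all genes was 35.1% (7644 genes). The 3 genes share 1 TAD and so give 1 observation and not 3. Among all genes, 14.5% lay in TADs whose ends differed by no more than 1 bin, 23.1% in TADs that differed more, 14.7% in a TAD of only 1 list and 12.6% in no TAD of either list.

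**Figure D1:**
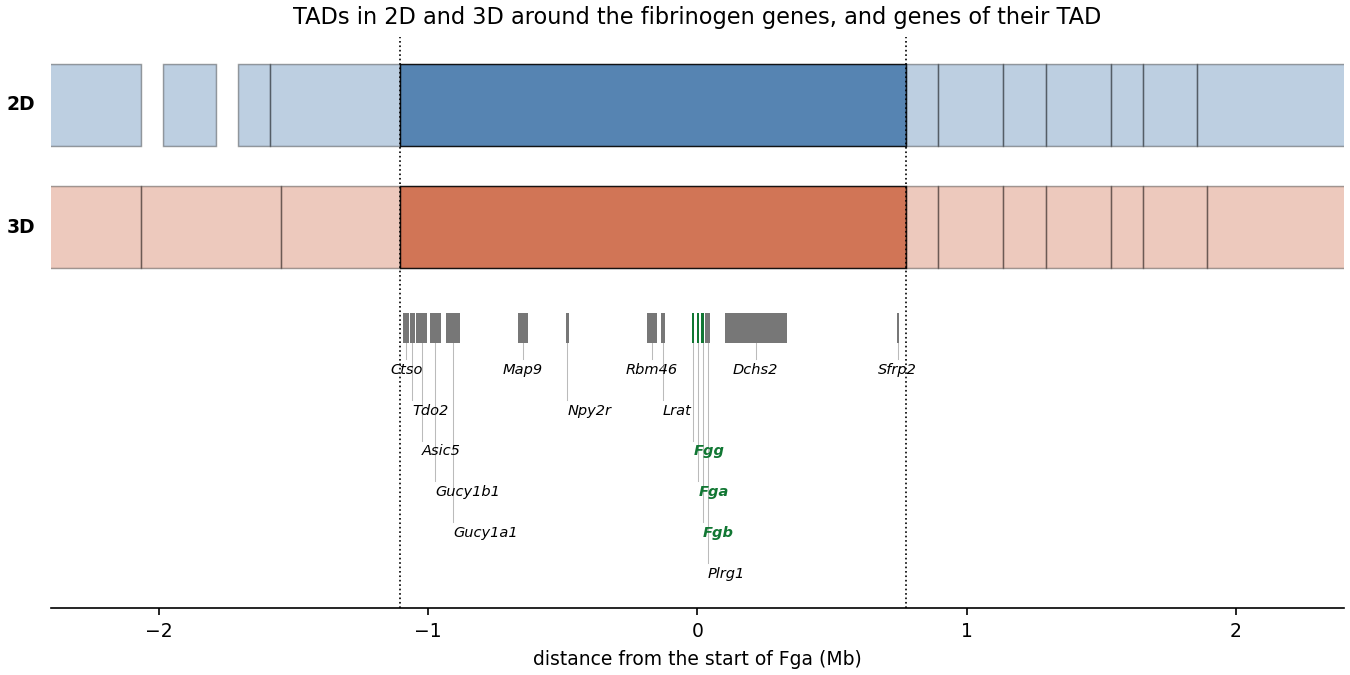
TADs called in 2D (blue) and in 3D (orange) against the distance from the start of Fga in Mb, with the TAD of the fibrinogen genes in darker colour, dotted lines at its borders and the 15 protein-coding genes that start in it underneath (fibrinogen genes in green). The dark TAD spans 1880 kb with the same ends in both lists, and the lists differ on its left, where 2D has gaps between TADs.

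Within this TAD the fibrinogen genes formed a compact cluster. Fgg (ENSMUSG00000033860.13) lay at chr3:83007724-83015049 on the plus strand, with 9 or 10 exons in its 2 annotated transcripts. Fga (ENSMUSG00000028001.16) followed at chr3:83026076-83033627, also on the plus strand, with 5 or 6 exons in 2 transcripts. Fgb (ENSMUSG00000033831.5) came last, at chr3:83040141-83049863 on the minus strand, with 8 exons. The 3 genes were thus 7326, 7552 and 9723 bases long. Fgg and Fga were separated by 11.03 kb, and the ends of Fga and Fgb, which face each other, by 6.51 kb. The cluster measured 42.1 kb, 2.24% of the TAD. Fgg and Fga lay in the bin chr3:83000001-83040000 and Fgb in the next bin, chr3:83040001-83080000, so at 40 kb Fgg and Fga cannot be resolved from each other.

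The cluster lay deep inside the TAD. Fgg started 1088 kb after the TAD start, at 57.9% of its length, Fga 1106 kb after it (58.8%) and Fgb 1130 kb after it (60.1%). For each gene the nearest border was the TAD end, in 2D and in 3D alike. That border was 792 kb from the start of Fgg, 774 kb from that of Fga and 750.1 kb from that of Fgb. The midpoint of the cluster lay 169 kb after the midpoint of the TAD. Over all 21755 genes, the median distance to a border was 53.6 kb in 2D (quartiles 22.5 and 132 kb) and 58.3 kb in 3D (quartiles 23.8 and 141 kb). Of these genes, 4.08% in 2D and 4.52% in 3D lay farther from a border than Fgg. For Fga the shares were 4.25% and 4.68%, and for Fgb 4.49% and 4.96%.

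**Figure D2:**
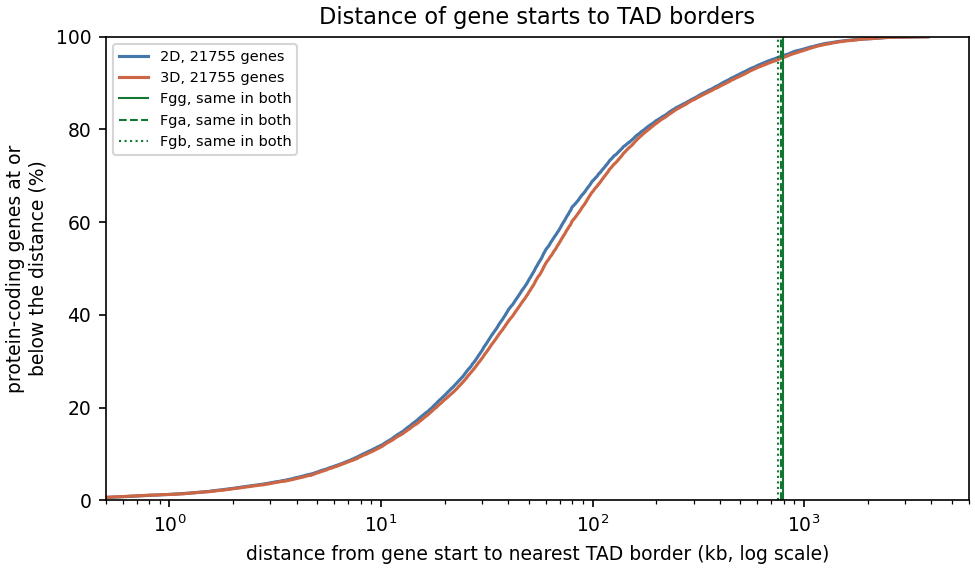
Share of the 21755 protein-coding genes (y axis, percent) whose start lies at or below a given distance from the nearest TAD border (x axis, kb, log scale), in 2D (blue) and in 3D (orange). Vertical green lines mark Fgg, Fga and Fgb at 792, 774 and 750.1 kb, which fall on the upper end of both curves, where fewer than 5% of genes lie farther out.

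The TAD of the fibrinogen genes was long. The 2D list held 4467 TADs with a median of 240 kb, and 263 of them were longer than this TAD, 17 had its size (itself included) and 93.7% were shorter. The 3D list held 4355 TADs with a median of 280 kb, of which 270 were longer, 16 had its size and 93.4% were shorter. On chromosome 3, 15 of 263 TADs in 2D and 16 of 249 in 3D were longer. Of the 199 TADs of 1500 to 2300 kb in 2D, a range chosen after the size of the fibrinogen TAD was known, 61.3% had a counterpart (95% Wilson interval 54.4 to 67.8) and 36.7% the same start and end (30.3 to 43.6). Of the 181 such TADs in 3D, 67.4% had a counterpart (60.3 to 73.8) and 40.3% the same ends (33.5 to 47.6). A counterpart was found for 66.1% of all 2D TADs (64.7 to 67.4) and for 67.8% of all 3D TADs (66.4 to 69.1), and these intervals overlapped those of the long TADs. Over all TADs of the 2D list, 46.3% (44.8 to 47.7) had the same start and end in the other list, and over those of the 3D list 47.4% (46.0 to 48.9). For the same start and end, the interval of the long TADs lay below that of all TADs in 2D and overlapped it in 3D. These intervals cover counting error only.

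The fibrinogen TAD also held many genes for its length. In it started 15 protein-coding genes, 8 on the plus strand and 7 on the minus strand, and none of their bodies crossed a border. The median TAD held 3 such starts in either list. Fewer than 15 starts were held by 97.7% of 2D TADs and by 96.9% of 3D TADs. The fibrinogen TAD thus had 7.98 genes per Mb, and the figure over all TADs together was 7.29 in 2D and 7.70 in 3D. Taken TAD by TAD, those of 1500 to 2300 kb had a median of 2.19 genes per Mb in 2D and 1.92 in 3D. This median is another measure than the figure over all TADs together, so those 2 cannot be set against each other. Among TADs at least as long as that of fibrinogen, 26 of 280 in 2D and 30 of 286 in 3D held at least 15 genes. In the plot of TAD size against gene number the fibrinogen TAD therefore sits in a thinly filled corner, long and with many genes. Of TADs with at least 15 genes, 46 had the same ends in both lists, which is 44.7% of the 103 in 2D and 33.6% of the 137 in 3D.

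**Figure D3:**
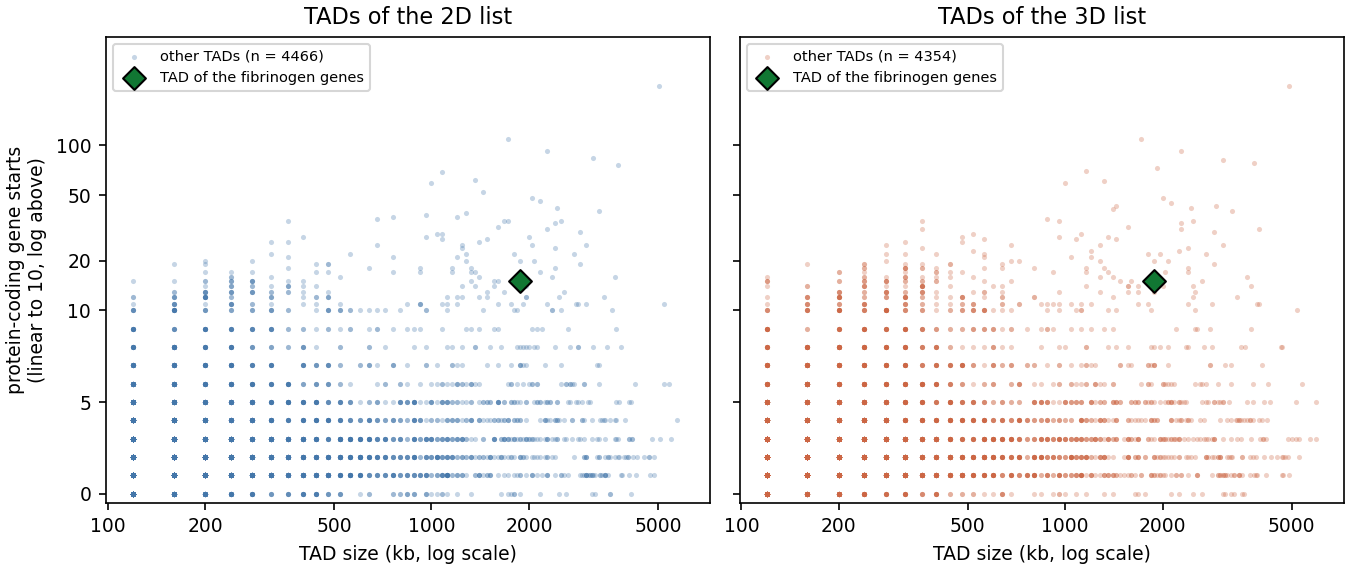
Number of protein-coding gene starts (y axis, linear to 10 and logarithmic above) against TAD size in kb (x axis, log scale) for each TAD in 2D (left) and in 3D (right). The green diamond is the fibrinogen TAD at 1880 kb and 15 genes in both lists, above most TADs of its length.

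The genes around the fibrinogen cluster had varied roles and were unevenly spread. At the TAD start lay Ctso, a lysosomal cysteine protease, 12.6 kb inside the border. Tdo2, which encodes the tryptophan dioxygenase of hepatocytes, started 56.2 kb inside it and Asic5, an ion channel of bile ducts and brain, 62.3 kb inside it. The soluble guanylate cyclase subunits Gucy1b1 and Gucy1a1, which sense nitric oxide, started at 155 and 226 kb. Map9, a microtubule-associated protein, and Npy2r, a receptor for neuropeptide Y, stood alone at 438 and 628 kb. Rbm46, a germ cell RNA-binding protein, and Lrat, which esterifies retinol and is known from hepatic stellate cells, started at 956 and 984 kb. The start of Lrat was 122 kb from that of Fga.

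On the other side of the cluster, the body of the splicing factor gene Plrg1 began 5.66 kb beyond the start of Fgb, and the starts of Plrg1 and Fga were 29.4 kb apart. Dchs2, a large cadherin gene of 229 kb, started 102 kb beyond Fga. Sfrp2, a secreted modulator of Wnt signalling, was the last gene, 740.2 kb beyond Fga. The widest stretch without a protein-coding gene lay between Dchs2 and Sfrp2 (409 kb), and the stretch between Lrat and Fgg measured 104 kb. The fibrinogen genes thus lay among close neighbours on the Plrg1 side and apart from them on the Lrat side. Protein-coding gene bodies took up 29.5% of the TAD.

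With 17 further annotated genes, mostly long non-coding RNAs and pseudogenes, 32 genes started in the TAD. The long intergenic RNA Gm30097 (chr3:82926665-83008488, minus strand) overlapped the first 765 bases of Fgg, including the Fgg start. A processed transcript, Gm9989 (chr3:81918008-81924463, minus strand), crossed the border at the TAD start.

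The border at the TAD start had protein-coding gene starts close by on its inner side and none close by on its outer side. Just inside it lay Ctso, and on the outside the nearest protein-coding start was that of Pdgfc, a platelet-derived growth factor, 884 kb away. The border at the TAD end lay between Sfrp2, which started 33.7 kb inside it, and Tlr2, a Toll-like receptor for bacterial lipoproteins, which started 41.8 kb outside it. Each of these borders had the same position in 2D and in 3D, where 64.1% of all 2D borders (3884 of 6056) and 69.8% of all 3D borders (3884 of 5563) had a border of the other list at the same position.

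Next to the fibrinogen TAD, the lists matched on the Tlr2 side and differed on the Pdgfc side. After the fibrinogen TAD, 5 consecutive TADs had the same ends in both lists, with Tlr2, then Tmem131l and Mnd1, then Trim2 and Gm6525, then Fhdc1, then Arfip1, Tigd4 and Tmem154. With the fibrinogen TAD they made an unbroken run of 6 TADs over chr3:81920001-84680000 (2760 kb). Of the 788 such runs in the genome, 46 were longer, 92% were shorter, the median run had 2 TADs and the longest 13. Every run had equal weight in this ranking, whatever its length. The run of fibrinogen was picked through a TAD in it, and a long run holds more TADs to be picked by. The 92% therefore does not give how rare such a run is around a TAD with the same ends, which was not tested. The fibrinogen TAD was the first of its run, with 0 TADs before it. The TAD before it held no protein-coding gene start and measured 480 kb in 2D (chr3:81440001-81920000) and 440 kb in 3D (chr3:81480001-81920000). Farther out, 2D had TADs of 120 and 200 kb with gaps of 80 kb, and the start of Pdgfc fell into such a gap, in no TAD. In 3D the same stretch was a single TAD of 520 kb that held Pdgfc (chr3:80960001-81480000). Beyond this stretch the TADs from chr3:78960001 to 80960000 had the same ends in both lists again. On the Tlr2 side the lists differed farther out, where the 2D borders at 85680000, 85920000 and 86080000 had no 3D border within 40 kb, nor the 3D border at 86160000 a 2D border.

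Counted by borders, 2 of 2 borders of each list within 1000 kb of the fibrinogen cluster had a border of the other list within 40 kb, and both, at chromosome 3 positions 83800000 and 83920000, had it at the same position. Within 40 kb, the share over all borders was 81.9% in 2D (4958 of 6056) and 88.1% in 3D (4903 of 5563). With 2 borders the Wilson interval of the share runs from 34.2% to 100%. Within 500 kb there was no border in either list. Within 2 Mb, 9 of 12 borders in 2D (75%) and 9 of 9 in 3D had a counterpart by the same rule, against these 81.9% and 88.1%. The 3 borders found in 2D alone lay at 81040000, 81240000 and 81320000, on the Pdgfc side.

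The bases of the region were read from GRCm38, since base composition, repeats and restriction sites bear on where Hi-C reads can be mapped. The bin of Fgg and Fga had a GC content of 43.1%, above 78.7% of chromosome 3 bins, and that of Fgb 43.3%, above 80.2% of them. Repeats covered 20.1% of the Fgg and Fga bin and 22.4% of the Fgb bin, and only 8.19% and 15.0% of chromosome 3 bins had fewer. The bins held 92 and 98 sites of MboI, the enzyme used to cut the chromatin (GATC), and the median bin of the chromosome held 98. No base of the 47 bins of the TAD was unknown. Over the bins of the TAD, GC content had a median of 40.8% (38.2% to 47.0%), with 39.6% in the first bin and 47.0% in the last, and on chromosome 3 the median was 40.0%. Repeats had a median of 28.0% in the TAD and of 33.6% on the chromosome.

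The outermost bins of the TAD were poor in repeats. The first bin, at Ctso, held 13.7% repeats, and 0.409% of chromosome 3 bins had less. The last bin, at Sfrp2, held 13.5%, and 0.333% had less. Its GC content of 47.0% was above that of 96.8% of chromosome 3 bins. The part of base and repeat content in where these borders were called was not tested.

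Matches to the core motif of CTCF, a DNA-binding protein found at many borders, were searched by its 12 letters on both strands. The TAD held 8 matches, in 14.9% of its bins (4.26 per Mb), and matches were found in 12.3% of chromosome 3 bins (3.45 per Mb) and in 16.7% of all bins (4.97 per Mb). The 4 matches on the Ctso side were on the minus strand, and the 4 on the side of Fgg and Sfrp2, from chr3:82877444-82877455 onwards, were on the plus strand. The matches nearest to the fibrinogen genes and nearest to a border are printed with 4 bases on each side, 5′ to 3′ on the plus strand, with the core in capitals.
Match before Fgg: tcccCCAGTAGAGGGCtggc
Match at the TAD end: ttctCCAGCAGGGGGCaccc

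The match before Fgg lay at chr3:83004355-83004366, 3.36 kb before the Fgg start and inside Gm30097, outside annotated repeats. That at the TAD end lay at chr3:83798015-83798026, 1.97 kb inside the border and in a repeat. None was found in the bins on either side of the border at the TAD start. These matches are letters in the reference, and binding of CTCF was not measured here.

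**Figure D4:**
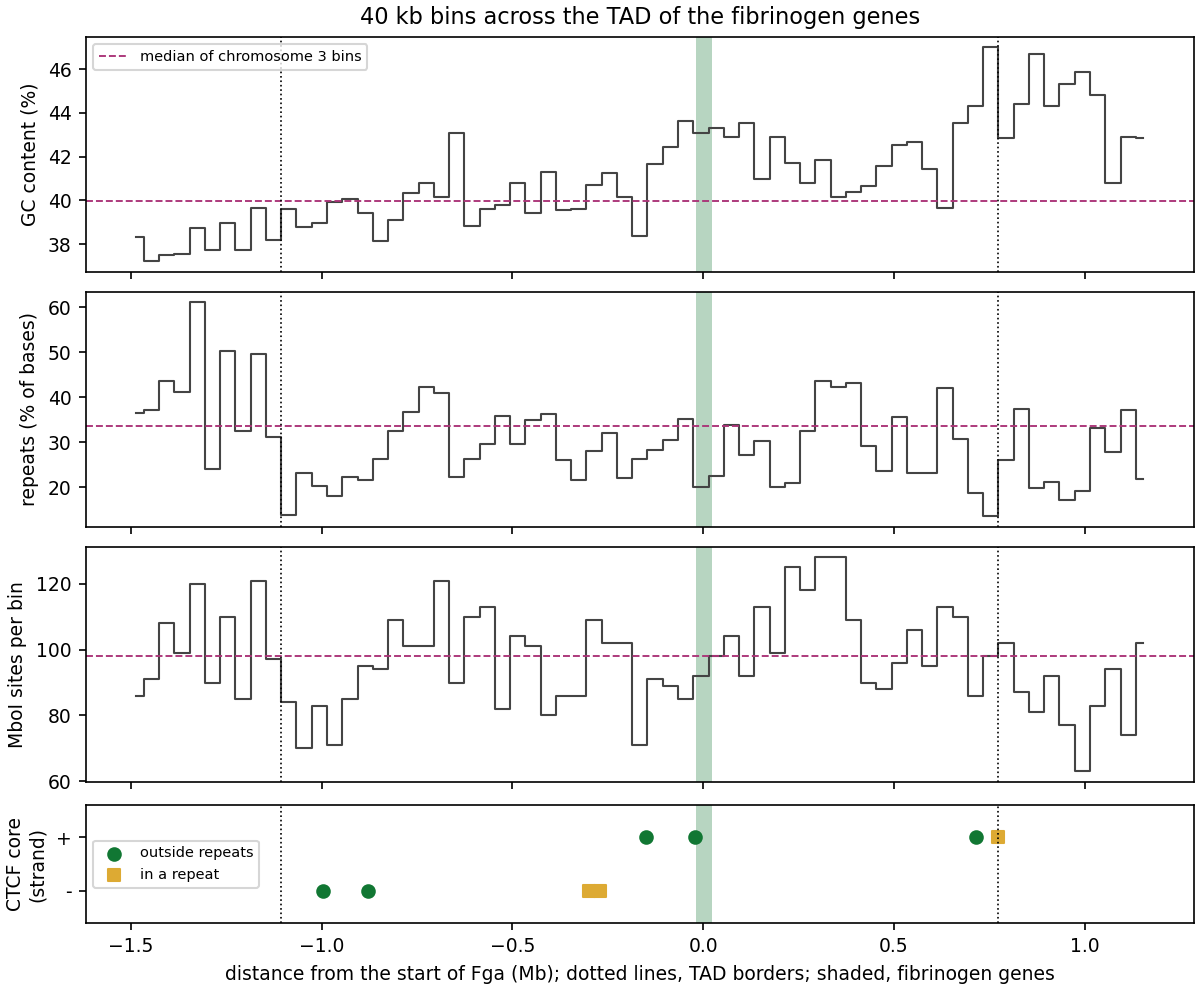
GC content (percent), repeats (percent of bases), MboI sites per 40 kb bin and matches to the CTCF core by strand, against the distance from the start of Fga in Mb. Dotted lines mark the borders of the fibrinogen TAD, green shading the fibrinogen genes and dashed lines the median of chromosome 3 bins. Repeats drop to 13.7% and 13.5% in the outermost bins of the TAD.

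Genes of clotting, anticoagulation, fibrinolysis, fibrinogen receptors and regulators of fibrinogen transcription were placed in the same way, with 19 genes that share only the fibrinogen C-terminal domain. The 6 lists held 71 genes, of which 49 (69.0%, Wilson interval 57.5 to 78.6) lay in a TAD with a counterpart and 36 (50.7%) in a TAD with the same ends. Over all genes these shares were 49.7% and 35.1%. Several of the 71 share a TAD, so they are fewer than 71 observations. The 62 genes that lay in a 2D TAD fell into 56 distinct TADs, and the 67 that lay in a 3D TAD into 60. Of the others, 12 lay in TADs that differed, 7 in a TAD of only 1 list and 3 in no TAD. None of the 71 lay farther from a border than Fgb in both lists, and the greatest distance was that of Tnc, an extracellular matrix glycoprotein, at 473 kb. Cdh5, an endothelial cadherin singled out after its values were seen, was alone in a longer TAD than that of fibrinogen (3440 kb in 2D and 3400 kb in 3D). The median TAD of the 71 genes measured 240 kb in both lists.

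The list of clotting genes held 18 members, with clotting factors, kininogens, vitamin K enzymes and also Tfpi, the inhibitor of tissue factor, and 11 of them lay in a TAD with a counterpart. Tfpi, which acts against clotting, was among the 11. The TADs of F12 (240 kb), F13a1, which encodes the subunit of factor XIII that cross-links fibrin (1480 kb), F3, tissue factor (280 kb), F5 (160 kb) and Kng1, kininogen (240 kb), had the same ends in 2D and 3D. F13b, the carrier subunit of factor XIII, lay in no TAD of either list, and so did F2, prothrombin, whose product cleaves fibrinogen and which was named after its values were seen. F8 and Klkb1, plasma prekallikrein, lay in a TAD of the 3D list only. F11 lay in a 240 kb TAD in 2D and a 120 kb TAD in 3D. Ggcx, the vitamin K-dependent carboxylase, started 14.3 kb from a border in both lists. F3 was the clotting factor on the chromosome of the fibrinogen genes, and it lay 76.5 kb from a border.

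Among 8 anticoagulant genes, 6 had a counterpart. Proc, protein C (200 kb), Procr, its receptor (200 kb), Pros1, protein S (120 kb), and Thbd, thrombomodulin (560 kb), lay in TADs with the same ends. Serpinc1, antithrombin, lay in a TAD of the 3D list only, and Serpind1, heparin cofactor II, in no TAD. Of 8 genes of fibrinolysis, 6 had a counterpart, and Plg, plasminogen (200 kb), Plat and Plau, its activators (160 and 280 kb), and Hrg, which binds plasminogen (240 kb), had the same ends. Plaur, the urokinase receptor, lay in a TAD of the 3D list only. Serpinf2, the plasmin inhibitor, lay in TADs of 120 kb in 2D and 520 kb in 3D.

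Of 8 genes for fibrinogen receptors, 6 had a counterpart. Itga2b, the platelet integrin subunit (280 kb), Itgam and Itgax, leukocyte integrin subunits in a shared TAD (280 kb), Itgav (160 kb) and Itgb2 (120 kb) lay in TADs with the same ends. Itgb3, the partner of Itga2b, lay in a TAD of the 3D list only. Of 19 other genes with the fibrinogen C-terminal domain, which ends the Bβ and γ chains, 13 had a counterpart. Fgl1, a liver-secreted relative of fibrinogen, lay in a TAD of 200 kb with the same ends, as did the angiopoietin genes Angpt1 (1000 kb), Angpt2 (360 kb) and Angpt4 (120 kb) and the tenascin gene Tnc (1120 kb). Fcna, ficolin A, was in no TAD of the 3D list. Another 5 lay in TADs that differed, and of these Angptl6, in TADs of 160 kb in 2D and 240 kb in 3D, started 0.273 kb from a border in both lists. The other 4, named after their values were seen, were Fgl2 (160 and 360 kb), Fcnb (480 and 720 kb), Fibcd1 (120 and 800 kb) and Tnxb (200 and 280 kb).

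Of 10 regulators of fibrinogen transcription, 7 had a counterpart. Cebpa (280 kb), which encodes a C/EBP factor, lay in a TAD with the same ends, as did the interleukin 6 receptor gene Il6ra (240 kb), the glucocorticoid receptor gene Nr3c1 (1120 kb) and Onecut1 (840 kb). The remaining 3, named after their values were seen, lay in TADs that differed between the lists. They were Cebpb (240 kb in 2D and 600 kb in 3D), Stat3, which acts downstream of interleukin 6 (240 and 360 kb), and Ctcf (120 and 480 kb). By list, the share with a counterpart ran from 61.1% (the clotting list, Wilson interval 38.6 to 79.7) to 75% (anticoagulants, fibrinolysis and receptors, 40.9 to 92.9 each), and these intervals overlapped. The share over all genes, 49.7%, lay inside the interval of each of the 6 lists.

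**Figure D5:**
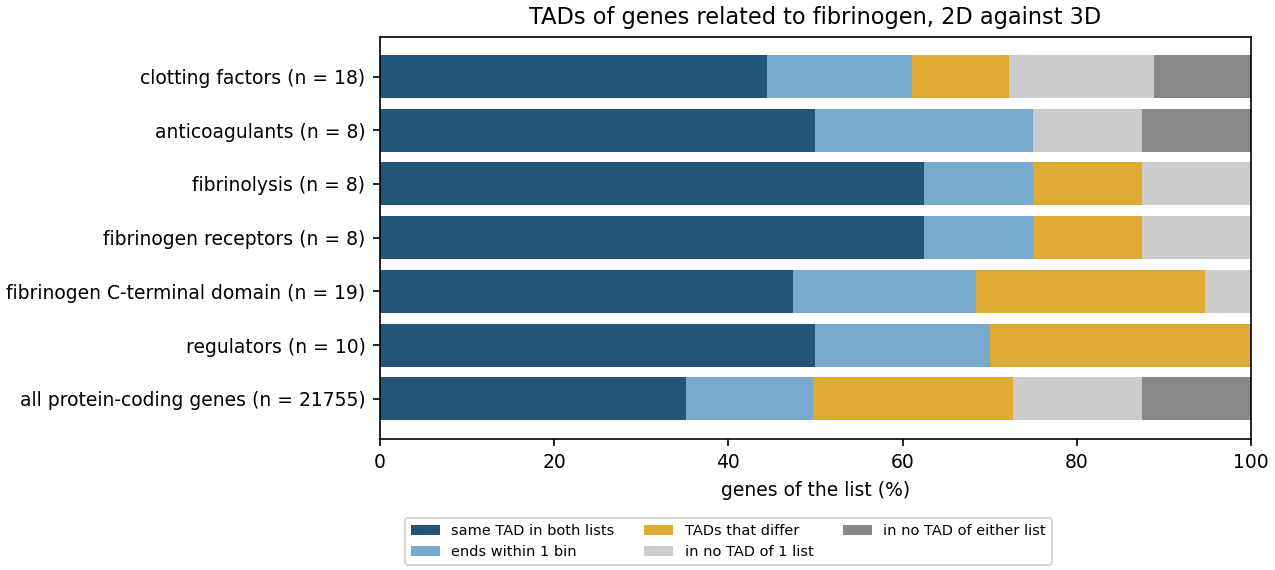
Share of the genes of each list (x axis, percent) by how their TAD compared between 2D and 3D, with the number of genes in parentheses (the clotting factors include Tfpi). Dark blue is the same TAD in both lists, light blue ends within 1 bin, yellow TADs that differ, light grey a TAD of only 1 list and dark grey no TAD. Dark blue takes up 35.1% of all protein-coding genes (lowest bar). The 71 related genes as a whole, at 50.7%, have no bar of their own.

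Other gene clusters of hepatocytes were set beside that of fibrinogen. Alb, albumin, Afp, α-fetoprotein, and Afm, afamin, shared a TAD of 240 kb with the same ends in both lists, in which they started 101, 109 and 81.1 kb from a border. Their relative Gc, the vitamin D binding protein, lay in TADs of 800 kb in 2D and 760 kb in 3D. The alcohol dehydrogenase genes Adh1, Adh4, Adh6a, Adh6b and Adh7, on chromosome 3 as well, shared a TAD of 280 kb with the same ends, and started 24.5 to 127 kb from a border. Adh5 lay in the next TAD, of 200 kb in 2D and 160 kb in 3D. These 10 genes thus lay in 4 TADs, of which 2 had the same ends in both lists, where 46.3% of all 2D TADs and 47.4% of all 3D TADs did. By the 40 kb rule, 4 of 4 albumin family genes and 6 of 6 alcohol dehydrogenase genes lay in a TAD with a counterpart, like the fibrinogen genes. Over all protein-coding genes that share was 49.7%. The fibrinogen TAD was longer than each of them, and no gene in a TAD of 800 kb or less can lie as far from its ends as the fibrinogen genes. Within the fibrinogen TAD itself, Ctso started 12.6 kb and Sfrp2 33.7 kb from a border. The part of TAD length in the distance of the fibrinogen genes from a border was not tested.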

How the data were processed

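In situ Hi-C (MboI) was performed on AML12 hepatocytes, with 2 replicates per culture. The deposited values are positions in base pairs of mm10, the start and end of each TAD in 1 list per culture, and are neither counts nor scores. According to the methods and the submitters' processing notes, the authors mapped reads with Bowtie2 (version 2.2.9), filtered pairs at a MAPQ above 30, merged replicates, balanced 40 kb matrices with ICE, brought both cultures to equal depth per chromosome and called TADs with Armatus at a gamma of 0.8. Combining replicates removes their spread, and the 40 kb bins limit every position. The depth behind a TAD is unknown, as the lists hold no counts. All TAD positions lay on the 40 kb grid, and none overlapped within a list. Contact matrices, compartments and RNA-seq were not analysed here.

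Genes were placed by their start (GENCODE M21, GRCm38) with Python 3.11.15, numpy 2.4.6, pandas 2.3.3 and scipy 1.17.1, and figures were drawn with matplotlib 3.10.9. A border is a TAD start or end, and distances run to the nearest border. Shares carry 95% Wilson intervals for counting error. Bins of mostly unknown bases (1849) were left out. On simulated data with 3000 TADs per list, 7 of 7 measures were recovered. No comparison has a test, since each culture has 1 list.

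The members and the gene lists were chosen with earlier results of these data known. Named were the fibrinogen genes, the protein-coding genes of their TAD and of the neighbouring TADs, the genes at its borders, and, of each related list, up to 10 genes in alphabetical order that lay in a TAD with the same ends, in a TAD of only 1 list or within 40 kb of a border in both. Protein Z, misspelt when the lists were written, was taken as Proz. Other allowed border distances, overlap rules, border definitions, windows and ways of placing genes were tried. Some listed genes and a promoter motif are not reported here by name.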

Additional observations from a re-analysis of the deposited data

How the results depend on the processing

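Of 43 alternative values, 38 stayed within their limit (1 bin for a distance, 1.5 times for a count, the 95% interval for a share) and 5 moved. Many of the 38 could not have moved, so this count is no measure of stability. The shares of borders around the locus had a limit of 34.2% to 100%, so 75% in 2D within 2 Mb counted as staying. The fibrinogen TAD exceeds 200 kb and each gene body is shorter than 1 bin, which fixed the distances under those 2 settings. The fibrinogen genes were 3 of 3 in a TAD with a counterpart with borders at the same position, within 80 kb, with a reciprocal overlap of 80% or 50%, placed by their end, and by the whole body. As their TAD has the same ends in both lists, the 80 kb and overlap rules could give no other count. Nor could placing by the end or body, as the genes lie far inside the TAD. These values therefore add no support. Their distances to a border were the same with only positions where 2 TADs meet or with TADs of at least 200 kb, and measured from the gene body they were 785 kb for Fgg and 766 kb for Fga. With every annotated gene counted, the fibrinogen TAD held 32 genes in place of 15, since non-coding genes are added by construction. With the same position required, the share with a counterpart was 50.7% of the related genes (69.0% within 40 kb) and 35.1% of all genes (49.7%). Over all genes it was 56.1% within 80 kb and 64.4% with a reciprocal overlap of 50%. These follow from stricter and looser rules. The share of the related genes stayed above that of all genes under these 3 rules (50.7%, 71.8% and 77.5%). With a reciprocal overlap of 80% it was 66.2%, and no such value was taken over all genes. The rules were applied to the same genes and TADs, so they are not independent of each other.

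A window of 500 kb held 0 borders and gave no value. No paired analysis was possible because the replicates of each culture were combined into 1 list, and for the same reason no replicate was left out. The 40 kb bins do not resolve Fgg from Fga, and no contact count is held for single TADs.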
